A study of Mus musculus with 12 samples.

Results

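The transcripts of 6 marker genes of Kupffer cells, the macrophages that live in the liver sinusoids, were followed in liver RNA of mice with and without chemically induced colitis. The genes were Clec4f, Cd5l, Marco, Timd4, Vsig4 and Cd163. They were chosen by name as established markers of this cell type, with earlier results of these data known. All 6 had a row among the 51609 gene rows of the count table and passed the filter on low counts that left 17652 genes for testing. Livers came from 12 mice on a C57BL/6 background, aged 5 to 7 weeks according to the methods of the study, in 4 groups of 3. Wild-type mice and mice labelled RelaΔhepStat3Δhep were given either plain drinking water (untreated) or 2% dextran sodium sulfate (DSS) in the water for 6 days. DSS damages the lining of the colon and is a standard way of causing acute colitis. In the RelaΔhepStat3Δhep strain, Cre recombinase driven by the albumin promoter deletes Rela and Stat3, genes of 2 transcription factors of inflammation, in hepatocytes. The deletion is thus aimed at hepatocytes and not at Kupffer cells. The mice called wild-type in the study were littermates without Cre, whose Rela and Stat3 genes were floxed (open to deletion by Cre). Mice of both sexes were used in the study, and the labels do not give the sex of each mouse.

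Kupffer cells line the sinusoids through which blood from the gut enters the liver, and they remove bacteria, debris and aged red cells from it. Most of them are long-lived and are renewed within the tissue, and blood monocytes can take their place when they are lost. Their identity depends on growth factor signals from neighbouring cells and on transcription factors such as PU.1, and the genes described here encode mostly surface receptors for the particles these cells clear. Clec4f is a C-type lectin receptor made almost solely by Kupffer cells. Cd5l (also called AIM) is a secreted protein of tissue macrophages. Marco and Cd163 are scavenger receptors, Marco for bacteria and other particles and Cd163 for haptoglobin-haemoglobin complexes. Timd4 binds phosphatidylserine on dying cells and marks long-resident macrophages. Vsig4 (CRIg) is a receptor for complement-coated particles. In bulk liver RNA, more cells of a type and more RNA per cell cannot be told apart.

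The upstream DNA of 4 of these genes is shown because the genes differ in how their transcripts moved: Cd5l was the most abundant member, Marco had the largest difference, Timd4 was the least abundant member that passed the test, and Cd163 was the member that did not pass it. Each line gives the 250 bases before the transcription start, 5′ to 3′ on the strand of the gene, from RefSeq on GRCm38.p6, and all 6 genes matched an entry by symbol. Capitals mark matches, on either strand, to any of 3 motifs: GAGGAA (the core of the PU.1 site), GGAA followed after any 2 bases by GAAA (a composite element of ETS and IRF factors) and TGCTGA (part of the Maf recognition element). The Cd5l window is chr3:87357631-87357880 on the plus strand, that of Marco is chr1:120505025-120505274 on the minus strand, that of Timd4 is chr11:46810549-46810798 on the plus strand, and that of Cd163 is chr6:124304401-124304650 on the plus strand.
Cd5l: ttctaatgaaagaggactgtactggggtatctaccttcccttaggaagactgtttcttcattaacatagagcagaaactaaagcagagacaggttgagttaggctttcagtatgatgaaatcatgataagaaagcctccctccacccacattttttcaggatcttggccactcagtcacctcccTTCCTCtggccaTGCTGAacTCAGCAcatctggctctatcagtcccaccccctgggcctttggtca
Marco: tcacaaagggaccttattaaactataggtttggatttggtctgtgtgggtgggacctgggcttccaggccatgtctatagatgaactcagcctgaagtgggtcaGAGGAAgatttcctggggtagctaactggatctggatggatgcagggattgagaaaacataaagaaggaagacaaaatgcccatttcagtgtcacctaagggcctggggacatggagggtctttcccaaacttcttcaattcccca
Timd4: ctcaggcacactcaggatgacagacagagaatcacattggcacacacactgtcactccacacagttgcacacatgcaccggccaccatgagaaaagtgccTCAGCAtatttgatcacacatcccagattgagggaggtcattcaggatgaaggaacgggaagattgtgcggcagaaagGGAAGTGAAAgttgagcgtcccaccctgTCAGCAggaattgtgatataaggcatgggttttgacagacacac
Cd163: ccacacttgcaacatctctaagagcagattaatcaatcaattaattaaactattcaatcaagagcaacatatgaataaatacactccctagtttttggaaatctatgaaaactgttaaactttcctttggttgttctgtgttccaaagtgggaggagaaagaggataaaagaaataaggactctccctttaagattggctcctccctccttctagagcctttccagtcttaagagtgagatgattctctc

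The letters GAGGAA occurred in the windows of 3 of the 6 genes (Cd5l, Marco and Vsig4), beside 23.3% of 32851 mouse promoter windows of the same length. In Marco the match lay 146 to 141 bases before the start, and in Cd5l it lay 66 to 61 bases before it on the opposite strand. The letters TGCTGA occurred in 3 of the 6 (Clec4f, Cd5l and Timd4), beside 16.1% of all windows. The composite element occurred in Timd4 alone, 72 to 63 bases before the start, beside 2.3% of all windows. No matches of different motifs overlapped, and the Cd163 window held none of the 3 motifs. These matches describe the letters in the windows, and the data hold no measure of binding.

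The libraries held between 65879529 and 82850098 estimated counts. Levels are given as CPM, counts brought to a common library size with TMM factors, which ran from 0.758 in wild-type DSS replicate 2 to 1.13. Rela CPM was 39.5 to 62.3 over the 12 libraries and did not separate the labels. Stat3 CPM was 43 to 74.8 in the 6 libraries labelled RelaΔhepStat3Δhep and 45.7 to 330 in the 6 wild-type libraries. These ranges overlap, so neither gene verifies the label, which is used here as given. Gene-level counts do not show deleted exons. The 3 libraries labelled RelaΔhepStat3Δhep DSS had Xist CPM of 903 to 1280 and summed CPM of at most 0.12 for 4 Y-linked genes, and the 3 untreated libraries of the same label had Xist CPM of at most 29 and Y-linked sums of 175 to 215. DSS and this difference in sex-linked transcripts cannot be told apart within the RelaΔhepStat3Δhep label. Wild-type untreated replicate 3 carried both signals (Xist CPM 1140, Y-linked sum 30.1). All wild-type DSS libraries had a Y-linked sum of at least 205 and Xist CPM of at most 11.9. Genotype and sex-linked transcripts therefore cannot be told apart among the DSS mice either, and the interaction shares this limit. Vsig4 is itself on the X chromosome.

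All 6 genes were readily detected in every library, with 513 to 28934 estimated counts per gene and library. To compare genes with each other, CPM was divided by the exonic length in kilobases. On this scale the mean over the 12 libraries was 103 for Cd5l, 56.4 for Clec4f, 26.7 for Marco, 23.1 for Vsig4, 6.62 for Timd4 and 4.91 for Cd163. These levels ranked from the 97.3 percentile (Cd5l) to the 61.8 percentile (Cd163) of 14420 tested genes with a length. Cd5l stood above Clec4f in all 12 libraries. In untreated mice labelled RelaΔhepStat3Δhep, Vsig4 (15.6 ± 2.24 CPM per kilobase, SD, n = 3) was above Marco (8.67 ± 1.71) and their libraries did not overlap. In the DSS-treated mice of that label Marco was at 48.7 ± 14.4 and Vsig4 at 35.2 ± 12.3, and their libraries overlapped. Timd4 and Cd163 were the lowest pair in all 4 groups, and in wild-type untreated mice they were at 5.08 ± 1.22 and 4.48 ± 0.612 CPM per kilobase, a gap within their spread.

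**Figure D1:**
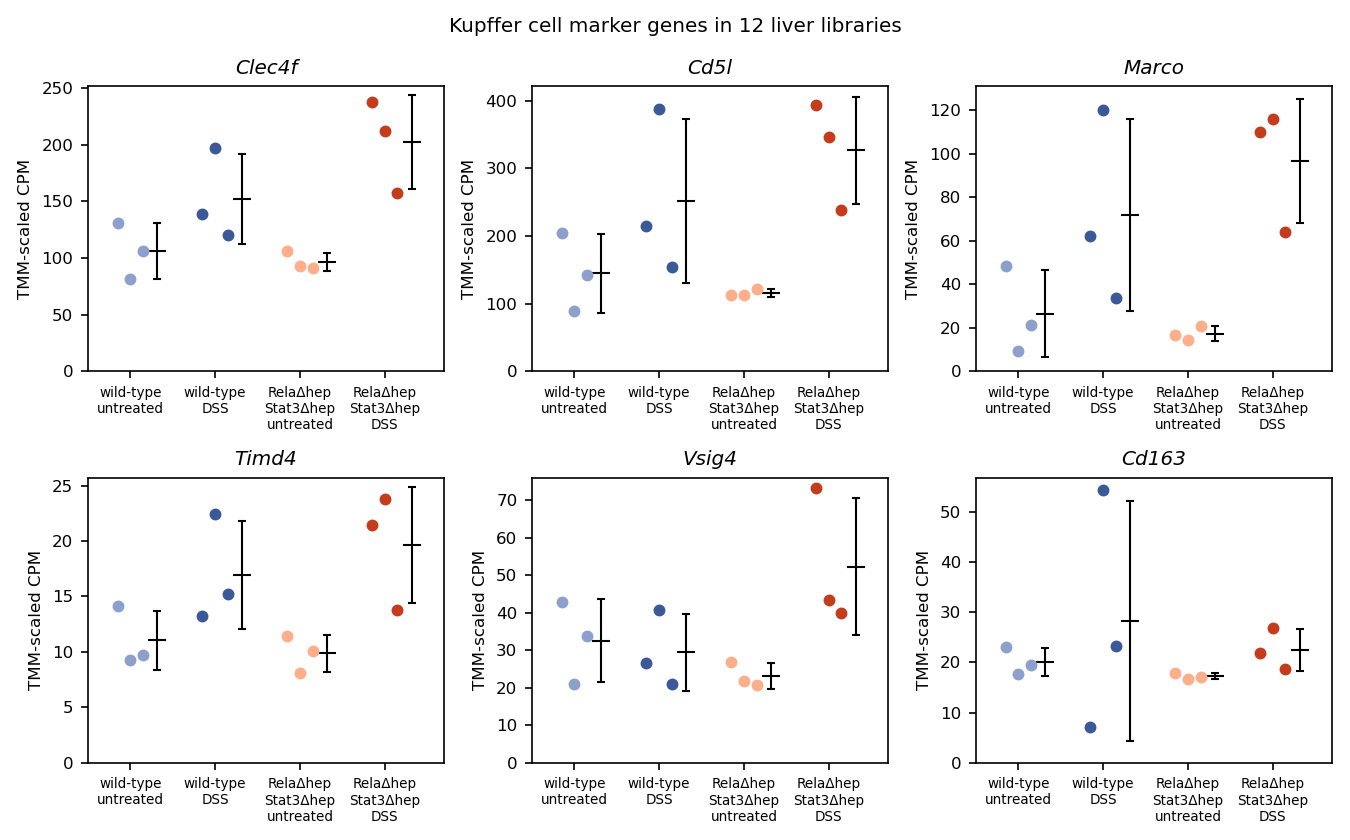
TMM-scaled CPM of each gene (vertical axis) in the 4 groups of 3 libraries (horizontal axis); points are libraries in replicate order and the bar beside them is the mean with its SD. In the RelaΔhepStat3Δhep groups the DSS points lie above the untreated points for all 6 genes, by the smallest margin for Cd163 (18.0 against 18.6), while the wild-type groups overlap for every gene.

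In mice labelled RelaΔhepStat3Δhep, DSS was accompanied by higher transcript levels of 5 of the 6 Kupffer cell markers. Mean CPM was 5.61 times as high for Marco, 2.83 times for Cd5l, 2.26 times for Vsig4, 2.1 times for Clec4f and 2.0 times for Timd4, and all 5 passed an adjusted p of 0.05 in edgeR. Cd163 was 1.29 times as high and did not pass. Over all tested genes 4.57% were called higher and 2.46% lower in this comparison. For all 6 genes each DSS library lay above each untreated library, as was the case for 17.8% of all tested genes.

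Marco (mm9 chr1:122371115-122401661, minus strand) was at 16.6, 14.2 and 20.9 CPM in the untreated libraries and at 110, 116 and 63.8 CPM in the DSS libraries. The lowest DSS library was thus far above the highest untreated one. Its log2 fold change was 2.49 (SE 0.61, adjusted p = 0.0407, edgeR), with a 95% interval of 1.12 to 3.86. The call of Marco held in 9 of 20 alternatives, with a log2 fold change of 2.34 to 2.92 over all of them. It was lost without a filter on low counts (adjusted p = 0.087), with the replicate block (0.067), with sex as a covariate (0.415), without any 1 of the 6 libraries of these groups (0.0529 to 0.148), and without wild-type untreated replicate 3 (0.0557) or wild-type DSS replicate 1 (0.057, all edgeR). Cd163 (chr6:124254669-124280545, plus strand), the other scavenger receptor, was at 18.0, 16.8 and 17.2 CPM untreated and at 21.8, 26.9 and 18.6 CPM with DSS. The groups did not overlap, but the gap between them was narrow, and the log2 fold change of 0.37 (95% interval -0.79 to 1.53) had an adjusted p of 0.716 in edgeR and was 0.22 without DSS replicate 2.

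Cd5l (chr3:87161803-87174996, plus strand) was at 112, 113 and 122 CPM in the untreated libraries and at 394, 346 and 239 CPM in the DSS libraries. The untreated mice lay close together and every DSS mouse was above them, with a log2 fold change of 1.5 (SE 0.35, adjusted p = 0.0253, edgeR). Clec4f (chr6:83594536-83606181, minus strand), the most cell-type-restricted of the 6, was at 106, 92.6 and 91.1 CPM untreated and at 238, 212 and 157 CPM with DSS. Its log2 fold change was 1.07 (SE 0.22, adjusted p = 0.0154, edgeR), which was the smallest adjusted p among the 6 genes.

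Timd4 (chr11:46624302-46657834, plus strand) was at 11.4, 8.06 and 10.1 CPM untreated and at 21.4, 23.8 and 13.8 CPM with DSS. Replicate 3 of the DSS group was the nearest to the untreated mice, and the log2 fold change was 1.00 (SE 0.25, adjusted p = 0.0327, edgeR). Vsig4 (chrX:93442542-93488777, minus strand) was at 26.9, 21.8 and 20.6 CPM untreated and at 73.3, 43.4 and 40 CPM with DSS. Replicate 1 stood above the other two DSS mice, and the log2 fold change was 1.18 (SE 0.31, adjusted p = 0.0431, edgeR). All 6 genes were lowest in replicate 3 within this DSS group. The exact two-sided permutation test gave p = 0.1 for each of the 6 genes, the smallest value that 3 mice against 3 allow.

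These calls rested on most of the libraries of the 2 groups. With sex, read from Xist above 100 CPM, as a covariate, none of the 6 genes passed in edgeR. The log2 fold changes were 1.08 (Clec4f), 1.55 (Cd5l), 2.92 (Marco), 1.26 (Timd4) and 1.09 (Vsig4), and the standard errors grew 1.89 to 1.93 times. Only the wild-type untreated group held both levels of this covariate, so it was set by replicate 3 of that group alone, which carried both signals. All DSS libraries and no untreated library of the RelaΔhepStat3Δhep label lay above that Xist level. The fit therefore cannot separate sex from DSS in that label, and neither its fold changes nor its lost calls test the part of sex. Without RelaΔhepStat3Δhep untreated replicate 2 or 3, or without RelaΔhepStat3Δhep DSS replicate 1, 0 of the 6 were called. Without RelaΔhepStat3Δhep untreated replicate 1 or DSS replicate 2 it was 1 of 6, and without wild-type untreated replicate 3 or wild-type DSS replicate 1 it was 3 of 6. It was also 3 of 6 without a filter on low counts, and 4 of 6 with the replicate block or without RelaΔhepStat3Δhep DSS replicate 3. The direction was higher with DSS in all 20 alternatives run for each of the 6 genes.

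In wild-type mice the same comparison gave no call. Clec4f, Cd5l, Marco and Timd4 had positive log2 fold changes with unadjusted p under 0.05 in edgeR, a level passed by 8.36% of all tested genes in that direction, but their adjusted p ran from 0.273 to 0.308. Of all tested genes, 0.453% were called higher and 0.232% lower. DESeq2 also called 0 of the 6. The DSS and untreated libraries overlapped for all 6 genes, beside 9.49% of tested genes whose DSS libraries all lay above the untreated ones.

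Marco was at 48.5, 9.32 and 21.4 CPM in the untreated wild-type libraries and at 62.2, 120 and 33.5 CPM in the DSS libraries. The untreated mice spread widely, and untreated replicate 1 exceeded DSS replicate 3. The log2 fold change was 1.44 with a 95% interval of 0.12 to 2.76. Cd5l was at 205, 88.3 and 142 CPM untreated and at 214, 388 and 154 CPM with DSS, a log2 fold change of 0.80 (0.05 to 1.54). Clec4f was at 131, 81.6 and 106 CPM untreated and at 139, 197 and 120 CPM with DSS, a log2 fold change of 0.52 (0.04 to 0.99). For both genes DSS replicate 2 was the highest library and DSS replicate 3 lay below untreated replicate 1. Without DSS replicate 2 the log2 fold change was 0.86 for Marco, 0.34 for Cd5l and 0.28 for Clec4f, and without untreated replicate 1 it was 2.22 for Marco.

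Timd4 was at 14.1, 9.28 and 9.73 CPM untreated and at 13.2, 22.4 and 15.2 CPM with DSS, a log2 fold change of 0.62 (95% interval 0.08 to 1.16), which was 0.36 without DSS replicate 2. Vsig4 was at 42.8, 21.0 and 33.9 CPM untreated and at 26.6, 40.7 and 20.9 CPM with DSS. Its groups covered nearly the same range, and its log2 fold change of -0.15 (-0.82 to 0.52) was the only negative one. Cd163 was at 23.1, 17.7 and 19.5 CPM untreated and at 7.17, 54.4 and 23.2 CPM with DSS. The DSS mice lay on both sides of the untreated mice, and the log2 fold change of 0.49 had an interval of -0.67 to 1.65. Without DSS replicate 2, the log2 fold change of Cd163 was -0.41.

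The libraries differed along the whole set of genes within the wild-type groups. Untreated replicate 1 was the highest and untreated replicate 2 the lowest for all 6 genes, and DSS replicate 2 was the highest for all 6. That last library also had the lowest TMM factor and 35610 CPM of Hp, the acute-phase protein haptoglobin, against 1653 CPM in the lowest wild-type DSS library. The part of this library's composition in the marker levels was not tested.

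**Figure D2:**
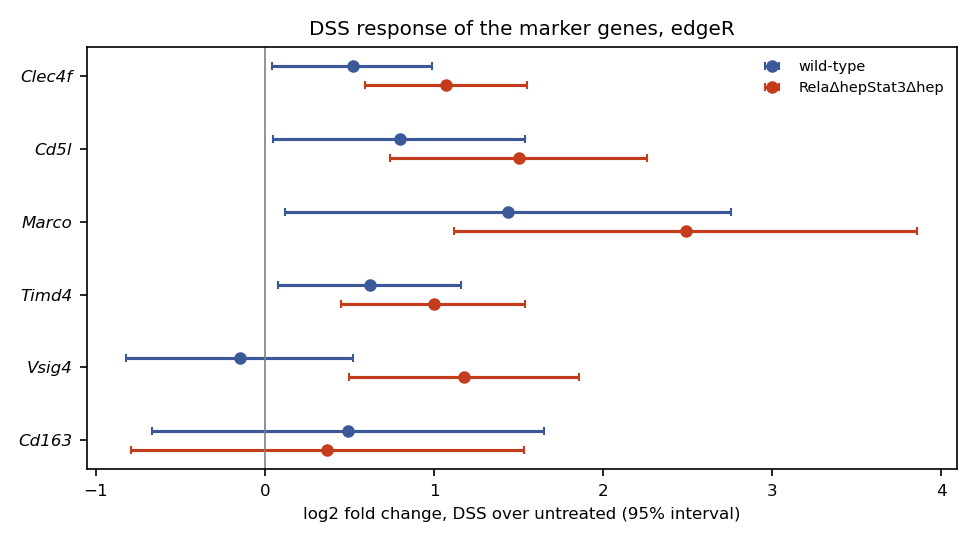
Log2 fold change of DSS over untreated (horizontal axis) with its 95% interval from edgeR for each gene (vertical axis), in wild-type mice (blue) and mice labelled RelaΔhepStat3Δhep (red). The intervals for the RelaΔhepStat3Δhep label exclude 0 for all genes but Cd163, whose interval is -0.79 to 1.53, and Marco has the highest point in both genotypes.

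Whether the response differed between the genotypes was tested by the interaction, the log2 fold change in mice labelled RelaΔhepStat3Δhep minus that in wild-type mice. None of the 6 genes was called (over all tested genes 0.244% were called higher and 0.164% lower). Vsig4 alone had an unadjusted p under 0.05 in edgeR, beside 8.83% of all tested genes with a positive interaction at that level and 16.3% in either direction. DESeq2 called 0 of the 6, beside 2.5% of its tested genes called higher. Vsig4 had an interaction of 1.33 (95% interval 0.37 to 2.28, adjusted p = 0.184, edgeR), and its lowest adjusted p over 19 alternatives was 0.062. For Marco the interaction was 1.05 (-0.79 to 2.88), for Cd5l 0.70 (-0.35 to 1.75), for Clec4f 0.56 (-0.12 to 1.23), for Timd4 0.38 (-0.38 to 1.14) and for Cd163 -0.12 (-1.75 to 1.51). These intervals include 0 and also differences larger than 1 log2 unit for all 5. Without wild-type untreated replicate 1 the interaction was 0.27 for Marco, 0.37 for Cd5l and 0.17 for Timd4, and without wild-type DSS replicate 2 it was 1.61, 1.14 and 0.62. Without other single libraries it was 0.45 for Cd5l (wild-type DSS replicate 3), and for Timd4 0.23 (wild-type DSS replicate 1), 0.22 (RelaΔhepStat3Δhep DSS replicate 2) and 0.58 (RelaΔhepStat3Δhep DSS replicate 3). The calls in the RelaΔhepStat3Δhep mice alone are therefore not a shown difference from wild-type mice. The interaction also cannot separate genotype from the sex-linked transcripts that set the RelaΔhepStat3Δhep DSS libraries apart.

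Between genotypes, untreated livers gave 0 calls among the 6 genes (0.034% of all tested genes were higher and 0.0283% lower), and no member reached even an unadjusted p of 0.05 in edgeR. All 6 log2 differences were below 0, from -0.14 for Clec4f to -0.62 for Marco, while 50.2% of all tested genes had a positive one. The untreated mice labelled RelaΔhepStat3Δhep lay within the wide wild-type spread for Clec4f, Cd5l and Marco, and for these genes and Timd4 the sign turned without wild-type untreated replicate 1 (values from 0.01 to 0.16). With DSS, 5 of the 6 were higher in the RelaΔhepStat3Δhep mice, beside 49.7% of all tested genes. Of the 6, 0 were called in edgeR and 1 was higher with an unadjusted p under 0.05. Over all tested genes 0.187% were called higher and 0.147% lower, and 7.18% were higher at an unadjusted p under 0.05. Vsig4 came nearest, with 73.3, 43.4 and 40 CPM against 26.6, 40.7 and 20.9 CPM in wild-type DSS mice, overlapping libraries and a log2 difference of 0.83 (95% interval 0.16 to 1.5, adjusted p = 0.261, edgeR). The other values were 0.43 for Marco, 0.41 for Clec4f, 0.37 for Cd5l, 0.22 for Timd4 and -0.33 for Cd163. These values rested on single libraries: without wild-type DSS replicate 2 they were 1.01 for Marco, 0.64 for Clec4f, 0.83 for Cd5l, 0.47 for Timd4 and 0.57 for Cd163. Over all 20 alternatives they ran from 0.09 to 1.01 for Marco, from 0.27 to 0.64 for Clec4f and from 0.12 to 0.83 for Cd5l, each lowest without wild-type DSS replicate 3. Timd4 ran from 0.06 without RelaΔhepStat3Δhep DSS replicate 2 to 0.48 with sex as a covariate, and Vsig4 was 0.51 without RelaΔhepStat3Δhep DSS replicate 1. DESeq2 called 0 of the 6 in each of these comparisons as well. The 4 comparisons share their groups of mice and are not independent of each other. Among the DSS mice, genotype and the difference in sex-linked transcripts cannot be told apart, for X-linked Vsig4 as for the others.

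Summed over the 6 genes, the level was 465, 227 and 332 CPM in untreated wild-type mice, and 462, 822 and 367 CPM in wild-type DSS mice. In mice labelled RelaΔhepStat3Δhep it was 291, 266 and 282 CPM untreated and 859, 768 and 533 CPM with DSS. The means were 341 ± 119, 550 ± 240, 280 ± 12.4 and 720 ± 168 CPM (SD, n = 3 each). The untreated RelaΔhepStat3Δhep livers were the tightest group and the wild-type DSS livers the widest, and the RelaΔhepStat3Δhep DSS mean was 2.58 times that of the untreated mice of the label. Cd5l and Clec4f made up most of the sum in every group, with Cd5l at 41.4% to 45.3% and Clec4f at 28.3% to 34.5% as group means.

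**Figure D3:**
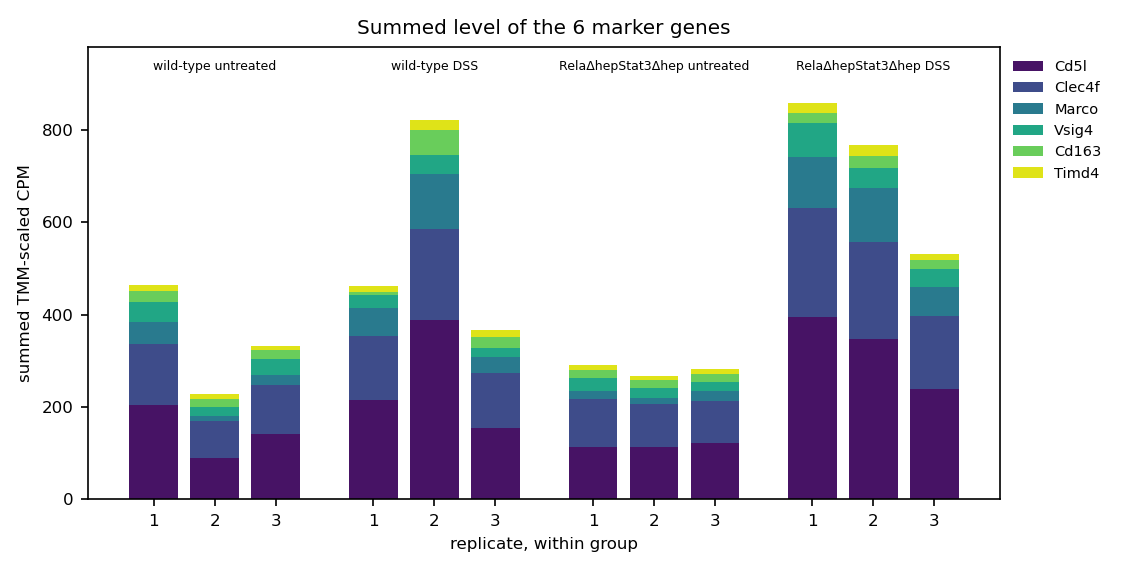
Summed TMM-scaled CPM of the 6 genes (vertical axis) in each library (horizontal axis, replicates 1 to 3 of each group), stacked by gene. The untreated RelaΔhepStat3Δhep bars lie between 266 and 291, the DSS bars of that label between 533 and 859, and wild-type DSS replicate 2 (822) stands above the other two of its group.

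In mice labelled RelaΔhepStat3Δhep some ratios between the genes differed between DSS and untreated libraries without overlap. The exact test of 3 mice against 3 cannot give a p under 0.1, so these ratios are described only. Marco was taken first because its fold change was the largest. The ratio of Marco to Clec4f CPM was 0.157, 0.153 and 0.229 in untreated mice labelled RelaΔhepStat3Δhep and 0.461, 0.547 and 0.406 in the DSS mice of that label. Every DSS liver thus had more Marco per Clec4f transcript than every untreated one, with a log2 difference of 1.37 (exact permutation p = 0.1, the smallest possible) and a range of 1.26 to 1.56 on leaving out any library. In wild-type mice the ratio was 0.369, 0.114 and 0.202 untreated and 0.446, 0.608 and 0.28 with DSS, and the groups overlapped. Marco took 6.15% ± 1.11 of the summed level in untreated and 13.3% ± 1.61 in DSS mice labelled RelaΔhepStat3Δhep.

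The share of Cd163 in the sum of the 6 genes was 6.21% ± 0.105 in untreated and 3.17% ± 0.548 in DSS mice labelled RelaΔhepStat3Δhep, and its log2 ratio to the mean of the other 5 genes was lower by 1.05 with DSS, without overlap (exact permutation p = 0.1). In wild-type mice that ratio of Cd163 was -0.99 ± 0.39 untreated and -1.58 ± 1.18 with DSS, with overlap (difference -0.58, exact permutation p = 0.7), and the difference was 0.10 without wild-type DSS replicate 1 and ran from -0.96 to 0.10 on leaving out a library. For Vsig4 the ratio moved in wild-type mice: its log2 ratio to the other 5 was -0.24 ± 0.12 untreated and -1.07 ± 0.29 with DSS, without overlap (exact permutation p = 0.1), and in mice labelled RelaΔhepStat3Δhep it was -0.47 ± 0.19 and -0.60 ± 0.40, with overlap. The shift of Vsig4 was not tested between the genotypes. Within the RelaΔhepStat3Δhep label the ratio to the other 5 was also lower for Clec4f (log2 difference -0.21) and higher for Cd5l (0.29), both without overlap, while Timd4 (-0.34) and Vsig4 (-0.13) overlapped. That of Vsig4 was 0.09 without DSS replicate 2, -0.31 without DSS replicate 1, -0.24 without untreated replicate 3 and -0.05 without untreated replicate 1. Such ratios compare genes within a library and describe unequal change, not which of the genes changed.

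**Figure D4:**
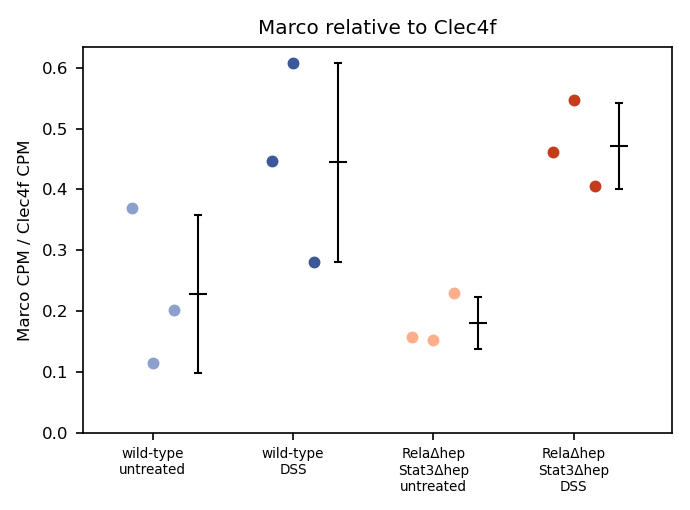
Ratio of Marco CPM to Clec4f CPM (vertical axis) in the 4 groups of 3 libraries (horizontal axis); points are libraries and the bar is the mean with its SD. The RelaΔhepStat3Δhep DSS points (0.406 to 0.547) lie above all untreated points of that label (0.153 to 0.229), and the wild-type points overlap.

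Other genes known from Kupffer cells and tissue macrophages were counted from a list. Of 25 such genes 22 had a row and were tested. Their median log2 fold change in mice labelled RelaΔhepStat3Δhep was 1.02, beside -0.01 over all tested genes. In that label 13 of the 22 rose with DSS and 0 fell, beside 4.57% and 2.46% of all tested genes. Those that rose included the C1q genes of the complement cascade (C1qa 0.99, C1qb 1.08, C1qc 1.05), the macrophage scavenger receptor Msr1 (1.17), the lysosomal protein Cd68 (0.89), the folate receptor Folr2 (0.84), the protease Ctsc (0.99) and the adaptor Tyrobp (1.54). Aif1 (1.77) and the inhibitory receptor Pilra (1.49) were also among them. C1qa went from 37.5 ± 1.93 to 74.4 ± 10.2 CPM. Adgre1, which encodes F4/80, had a log2 fold change of 1.16 and an adjusted p of 0.0503 in edgeR. The efferocytosis receptor Mertk was at 31.4 ± 2.85 and 30.8 ± 3.25 CPM (log2 fold change -0.03), and the potassium channel Kcna2 (0.16) and the iron exporter Slc40a1 (0.13) did not pass. With sex as a covariate, a fit that cannot separate sex from DSS in this label, 0 of the 22 were called. Without RelaΔhepStat3Δhep untreated replicate 1, 2 or 3 the count was 5, 2 and 5, and without DSS replicate 1 or 2 it was 3 and 6.

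The median log2 fold change of these 22 genes in wild-type mice was 0.52, beside 0.02 over all tested genes. There 3 of the 22 rose with DSS and 0 fell, beside 0.453% and 0.232% of all tested genes. They were Siglec1, the sialic acid receptor CD169 (log2 fold change 1.92, adjusted p = 0.00782), Il18bp, the decoy of interleukin 18 (2.03, adjusted p = 0.024), and Fcgr1, the high-affinity IgG receptor (1.72, adjusted p = 0.0162, all edgeR). Siglec1 went from 27.4 ± 4.5 to 104 ± 13.6 CPM, and Fcgr1 from 3.26 ± 0.972 to 10.7 ± 1.28 CPM. The same 3 genes rose in mice labelled RelaΔhepStat3Δhep, by 1.33 (Siglec1), 1.62 (Il18bp) and 1.67 (Fcgr1) on the log2 scale. All 3 are known to respond to interferons. Without wild-type untreated replicate 2 or 3, with the 2 groups alone, or with sex as a covariate, 1 of the 22 was called in wild-type mice.

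**Figure D5:**
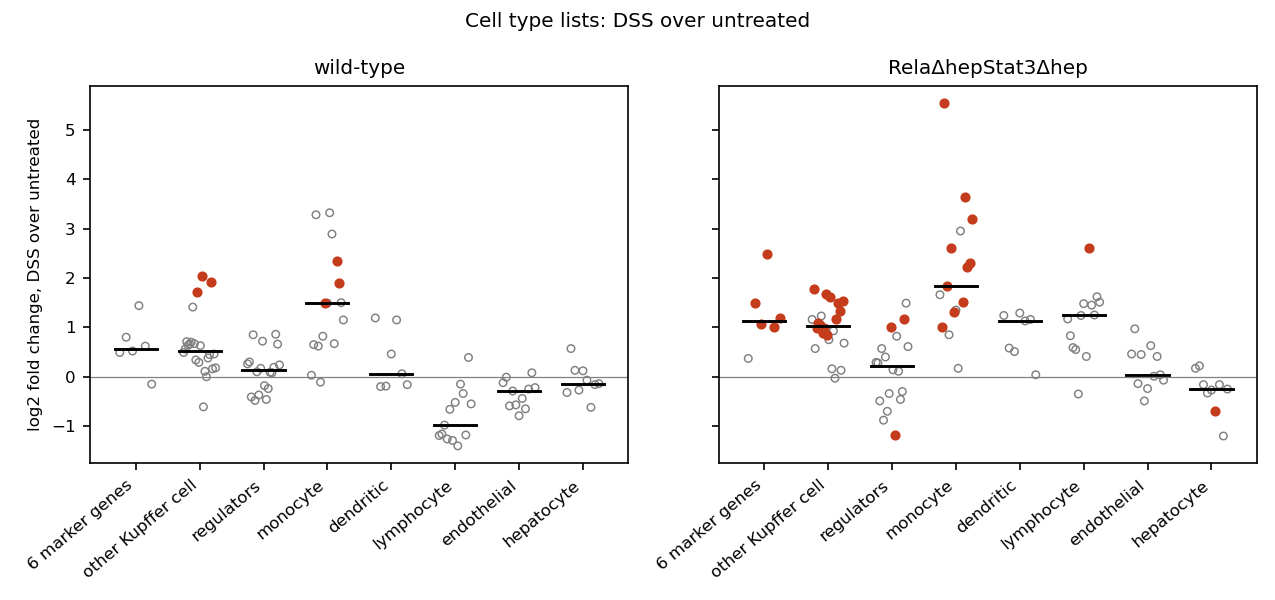
Log2 fold change of DSS over untreated (vertical axis) of each tested gene of 8 lists (horizontal axis) in wild-type mice (left) and mice labelled RelaΔhepStat3Δhep (right); filled red points passed an adjusted p of 0.05 in edgeR, open grey points did not, and bars are list medians. The 6 marker genes have medians of 0.57 and 1.12, and the monocyte list has medians of 1.49 and 1.83.

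Among genes known to set or keep Kupffer cell identity, such as transcription factors and the signals of neighbouring cells, 18 of 21 had a row and were tested. In mice labelled RelaΔhepStat3Δhep 2 rose and 1 fell, 12 had an unadjusted p under 0.05, and DESeq2 called 4 higher and 2 lower. Of all tested genes in that comparison, 24.1% had an unadjusted p under 0.05 in edgeR, and DESeq2 called 8.55% higher and 6.42% lower. In wild-type mice these shares were 14.5%, 3.63% and 2.28%. By edgeR 4.57% were called higher and 2.46% lower in the RelaΔhepStat3Δhep label, and 0.453% and 0.232% in wild-type mice. Of all tested genes 49.4% had higher values with DSS in that label and 52.2% in wild-type mice, whether called or not. All these shares are the background of the counts in the lists that follow. Spi1, which encodes PU.1, went from 4.07 ± 0.141 to 9.10 ± 2.64 CPM (log2 fold change 1.16, adjusted p = 0.0213), and Irf8, its partner in macrophages, from 10.9 ± 1.26 to 22 ± 1.42 CPM (1.01, adjusted p = 0.017, both edgeR). Spic, a factor of red pulp macrophages and Kupffer cells, was at 1.4 ± 0.478 and 3.94 ± 1.79 CPM (adjusted p = 0.0986, edgeR), and Id3 was at 56.7 ± 20.1 and 34.8 ± 12 CPM. Csf1, the growth factor of macrophages, was at 19.5 ± 3.63 and 29.0 ± 4.67 CPM (log2 fold change 0.57, adjusted p = 0.0837, edgeR), and Il34, the other ligand of the same receptor, was at 2.91 ± 0.209 and 2.30 ± 0.885 CPM. In wild-type mice 0 of the 18 passed in edgeR (4 at an unadjusted p under 0.05, and 3 by DESeq2), and Csf1 came nearest (0.85, adjusted p = 0.0595), going from 15.4 ± 2.39 to 27.8 ± 5.42 CPM.

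Of 15 tested genes of monocytes and recruited macrophages, 10 rose in mice labelled RelaΔhepStat3Δhep and 3 in wild-type mice (Ms4a4c, Plac8 and Fcgr4), and 0 fell. Over all tested genes 4.57% and 0.453% were called higher. The list medians were 1.83 and 1.49, beside -0.01 and 0.02 over all tested genes. In the RelaΔhepStat3Δhep label Chil3 rose by 5.54, Ms4a4c by 3.64, Vcan by 3.19, F13a1 by 2.60, Plac8 by 2.22 and Lyz2 by 1.51 on the log2 scale. Ccr2, the receptor that draws monocytes from the marrow, was at 5.93 ± 0.859 CPM untreated and at 18.8 ± 13 CPM with DSS (adjusted p = 0.0551, edgeR), and Trem2 was at 0 to 0.303 CPM in all libraries. The summed level of the list ran from 1231 to 1829 CPM untreated and from 1676 to 2145 CPM with DSS in that label, and from 1256 to 2182 and from 1881 to 35865 CPM in wild-type mice. Most of these sums was Hp, which hepatocytes also express. With sex as a covariate, a fit that cannot separate sex from DSS in the RelaΔhepStat3Δhep label, 0 of the 15 were called in either genotype. The RelaΔhepStat3Δhep count was 3 without untreated replicate 2 and 6 without untreated replicate 3. The wild-type count was 1 without untreated replicate 1 or DSS replicate 2, 0 without untreated replicate 2 or 3, 5 without DSS replicate 3, 8 by DESeq2, and 0 by voom or with the 2 groups alone. The part of monocyte-derived cells in the levels of the 6 markers was not tested.

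Markers of further cell types were counted in the same 2 comparisons. Of 10 tested neutrophil genes 1 rose in mice labelled RelaΔhepStat3Δhep (Csf3r, log2 fold change 1.58, edgeR), with 8 at an unadjusted p under 0.05 and 7 called higher by DESeq2. In wild-type mice 0 passed in edgeR, with 7 at an unadjusted p under 0.05 and 4 called by DESeq2. The summed level of the list was 2.0 to 2.59 CPM untreated and 12.6 to 32.4 CPM with DSS in mice labelled RelaΔhepStat3Δhep, and 4.78 to 7.48 and 5.43 to 130 CPM in wild-type mice. The 130 CPM was that of wild-type DSS replicate 2, the library highest in its group for all 6 markers. Replicates 1 and 3 of that group were at 10.4 and 5.43 CPM. These sums were low beside that of the 6 markers, and the part of neutrophils in the marker levels was not tested.

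All 7 tested genes of dendritic cells had higher values with DSS in mice labelled RelaΔhepStat3Δhep, with a median log2 fold change of 1.13 beside 1.12 for the 6 markers. Their summed level was 14.7 to 15.8 CPM untreated and 17.1 to 27.0 CPM with DSS, without overlap. Levels were low: apart from Zbtb46 and Itgax, group means in that label were at most 1.69 CPM. Of these 7 genes 0 passed in edgeR in that label, with 4 at an unadjusted p under 0.05 and 1 called by DESeq2. In wild-type mice 4 of the 7 were higher, the median was 0.06, and 0 passed in edgeR (1 at an unadjusted p under 0.05, 0 by DESeq2). The part of dendritic cells in the marker levels was not tested. Of 7 genes of peritoneal macrophages 0 passed in edgeR, with 1 at an unadjusted p under 0.05 in each genotype, and by DESeq2 1 passed in wild-type mice and 0 in the RelaΔhepStat3Δhep label. In that label 6 of the 7 had higher values with DSS (median 0.73), and in wild-type mice 4 (median 0.29). Their summed level was 44.3 to 52.4 CPM untreated and 68.1 to 99.5 CPM with DSS in that label. In wild-type mice it was 39.4 to 63.6 and 75.7 to 415 CPM, also without overlap. Most of these sums was a single gene, Prg4. It was at 34.4 ± 5.71 and 68.6 ± 16.9 CPM in the RelaΔhepStat3Δhep label, and at 38.7 ± 12.6 and 203 ± 172 CPM in wild-type mice. Alox15, Serpinb2 and Icam2 had lower values with DSS in wild-type mice. The part of peritoneal macrophages in the marker levels was not tested. Among 11 genes of liver endothelial cells, neighbours of Kupffer cells, 0 passed in edgeR, with 3 at an unadjusted p under 0.05 in the RelaΔhepStat3Δhep label (1 higher and 1 lower by DESeq2) and 4 in wild-type mice (3 lower by DESeq2). Their summed level was 632 to 700 CPM untreated and 628 to 849 CPM with DSS in the RelaΔhepStat3Δhep label. Of 8 stellate cell genes 6 had higher values with DSS in that label, and Des rose in edgeR (1.98, 1 gene called higher by DESeq2). The stellate sum was 466 to 538 CPM untreated and 582 to 746 CPM with DSS there, without overlap, and 536 to 619 and 431 to 580 CPM in wild-type mice, and its part in the marker levels was not tested. Of 9 hepatocyte genes Hnf4a fell in that label in edgeR (-0.70, 2 genes called lower by DESeq2), and of 6 erythroid genes Alas2 fell (-2.68, 1 gene called lower by DESeq2). In wild-type mice edgeR called 0 genes of these 3 lists, with 2 stellate, 2 hepatocyte and 0 erythroid genes at an unadjusted p under 0.05, and DESeq2 called 1 stellate gene lower and 0 of the other 2 lists. Of 4 cholangiocyte genes 0 passed in edgeR, with 1 at an unadjusted p under 0.05 and 1 by DESeq2 in wild-type mice, and 0 by either in the RelaΔhepStat3Δhep label.

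The genes whose pattern over the 12 libraries was most like that of the 6 markers were found by the Pearson correlation of log2 CPM with the mean standardised log2 CPM of the 6. They were Clec4a3 (0.965), Clec4a1 (0.963), Batf (0.962), Parvg (0.959), Rims3 (0.955), Cd86 (0.953), Sirpa (0.953), Ccl6 (0.951), Soat1 (0.95) and Tlr13 (0.948). Clec4a3 and Clec4a1 encode C-type lectin receptors of myeloid cells, Cd86 a costimulatory molecule of antigen-presenting cells, Sirpa an inhibitory receptor of phagocytes, Ccl6 a chemokine, and Tlr13 a sensor of bacterial ribosomal RNA. Sirpa was at 26.3 CPM in untreated and 34.6 CPM in DSS wild-type mice on average, and at 22.3 and 43.9 CPM in mice labelled RelaΔhepStat3Δhep. The genes least like the markers were a gene without a name here (ENSMUSG00000106230, -0.946), Deptor (-0.936), Retsat (-0.925), Mlxipl (-0.919) and Chrna2 (-0.918). Mlxipl encodes ChREBP, a regulator of lipid synthesis, and was at 130, 93.6, 164 and 71.7 CPM on average in the order of untreated and DSS wild-type mice and untreated and DSS mice labelled RelaΔhepStat3Δhep. These coefficients describe 12 libraries that share the group differences above, and they carry no test. By Spearman correlation 4 of the first 10 genes were the same.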

How the data were processed

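RNA of 12 livers was sequenced in paired-end mode after removal of rRNA. The authors deposited estimated counts per gene as whole numbers, made with fastp, HISAT2 (mm9) and StringTie per the labels, before any normalization. Such estimates share reads between overlapping genes, and strand use and the annotation file are not given in the sources used here. GENCODE vM1 named 28677 of 51609 rows and left 22932 unnamed. Groups came from the sample labels. In R 4.3.3, edgeR 4.0.16 (filterByExpr, TMM, robust quasi-likelihood F tests, 1 model with 4 groups) tested 17652 genes at a common biological coefficient of variation of 0.317, with Benjamini-Hochberg adjustment over all tested genes and a threshold of 0.05. Single-gene exact permutation tests, two-sided, used log2(CPM + 0.5). The edgeR p-values measure the spread between mice, estimated over all 12 libraries with information shared across genes. The permutation tests use only the 2 groups compared, with 3 mice each. The members and the gene lists were chosen with earlier results of these data known. Named genes were the 6 markers, list genes that passed or stood at the extremes, and the genes most and least like the markers, with further list genes added for their role; some list genes that passed are counted but not reported here by name. The steps were tested on simulated data. Alternatives were DESeq2 1.42.0, limma 3.58.1 (voom), DESeq2 size factors, other filters, the compared groups alone, a replicate block, sex as a covariate, another pseudocount, Spearman correlation and leaving out each library. Promoter windows came from RefSeq (GRCm38.p6), and positions of genes from mm9. The paper's other assays were not used here. The 3 genes of a list without a row (Csf1r, Clec1b and Mrc1 among those of Kupffer cells) were not analysed here.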

Additional observations from a re-analysis of the deposited data

Results flagged for a closer look

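The edgeR interaction test called 4 of the genes read as checks of the libraries, all Y-linked: Kdm5d (log2 interaction -10.18, adjusted p = 0.00776), Uty (-11.71, adjusted p = 0.00378), Ddx3y (-11.61, adjusted p = 0.00475) and Eif2s3y (-14.86, adjusted p = 0.015). The 3 RelaΔhepStat3Δhep DSS libraries had a sum of at most 0.12 CPM for these genes and Xist CPM of 903 to 1280, against Y-linked sums of 175 to 215 CPM in the untreated libraries of that label, so the sex of the mice and a response to DSS cannot be told apart in these values. They depend on the prior count and are no measure of size. None of the 6 Kupffer cell markers and none of the other list genes was called by this test. Groups of 3 are too small for the test of single outlying libraries.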

How the results depend on the processing

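The number of the 6 markers called in mice labelled RelaΔhepStat3Δhep (5) was 3 with no filter on low counts, 0 with sex as a covariate, and 0 to 5 on leaving out a library. It was 5 under DESeq2, voom, DESeq2 size factors, the stricter filter and the 2 groups alone. The other 4 comparisons gave 0 calls under every alternative run. Among the other Kupffer cell genes, the wild-type count (3) was 1 with only the 2 groups compared, 1 with the sex covariate and 1 to 3 on leaving out a library, and the RelaΔhepStat3Δhep count (13) was 0 with the sex covariate and 2 to 17 on leaving out a library. For the monocyte list the wild-type count (3) was 8 under DESeq2, 0 under voom, 0 with only the 2 groups, 0 with the sex covariate and 0 to 5 on leaving out a library, and the RelaΔhepStat3Δhep count (10) was 0 with the sex covariate and 3 to 11 on leaving out a library. The sex covariate was set by wild-type untreated replicate 3 alone and cannot separate sex from DSS in the RelaΔhepStat3Δhep label, so its counts do not test sex. The cause of these shifts was not tested.

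Signs turned only for log2 fold changes that had not passed. Vsig4 in wild-type mice (-0.15) was 0.1 without wild-type untreated replicate 1 and 0.04 without wild-type DSS replicate 3, in a range of -0.46 to 0.1 on leaving out a library. Cd163 in wild-type mice (0.49) was -0.33 under voom and -0.41 without wild-type DSS replicate 2 (range -0.41 to 0.95). Between DSS-treated genotypes Cd163 (-0.33) was 0.39 under voom and 0.57 without that library (range -0.79 to 0.57), and its interaction (-0.12) was 0.64 under voom, 0.05 with the replicate block, 0.77 without that library and 0 without RelaΔhepStat3Δhep DSS replicate 3 (range -0.57 to 0.77). Between untreated genotypes, leaving out wild-type untreated replicate 1 gave 0.04 for Clec4f (range over libraries left out -0.3 to 0.04), 0.01 for Cd5l (-0.58 to 0.01), 0.16 for Marco (-1.02 to 0.16) and 0.05 for Timd4 (-0.28 to 0.05). The replicate block left 4 of the 6 markers called in the RelaΔhepStat3Δhep label, with 1164 genes called in all beside 1240 without it. Same-numbered libraries had correlations of deviations from -0.073 to 0.206, so the numbers were not taken to pair the mice.

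With 3 mice a group, SEs of the 6 markers were 0.22 to 0.61 on the log2 scale between 2 groups and 0.31 to 0.82 for the interaction. The depth was not varied, so its part in these errors was not tested.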

Other observations

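The lymphocyte list showed opposite signs in the 2 genotypes. Of 13 tested genes of T, B and NK cells, 12 had lower values with DSS in wild-type mice and 12 had higher values in mice labelled RelaΔhepStat3Δhep, with medians of -0.98 and 1.24 on the log2 scale. Of all tested genes, 52.2% had higher values with DSS in wild-type mice and 49.4% in mice labelled RelaΔhepStat3Δhep. Gzma, a granule protease of NK and T cells, rose from 0.785 ± 0.0375 to 4.80 ± 2.11 CPM in the latter (adjusted p = 0.0305, edgeR). It was the 1 gene of the 13 called there in edgeR, with 6 at an unadjusted p under 0.05 and 2 called by DESeq2, and 0 of the 13 passed in wild-type mice in edgeR (5 at an unadjusted p under 0.05, 0 by DESeq2). For the interaction 0 of the 13 passed in edgeR, 9 had an unadjusted p under 0.05 (16.3% of all tested genes), and DESeq2 called 3 higher (2.5% of all its tested genes). Their summed level was 9.99 to 17.4 CPM in untreated and 4.57 to 11.2 CPM in DSS wild-type mice, and 6.99 to 9.62 and 13.9 to 28.6 CPM in mice labelled RelaΔhepStat3Δhep. The 3 DSS mice of that label are the ones with Xist, and the part of sex in these values was not tested for this list.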
